A study of Homo sapiens with 8 samples.

Results

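The 10 genes described here encode the enzymes that make serine, move its one-carbon unit through the folate cycle, and make asparagine. They are PHGDH, PSAT1 and PSPH of serine synthesis, the serine hydroxymethyltransferases SHMT1 and SHMT2, the folate enzymes MTHFD1, MTHFD2, MTHFD1L and ALDH1L2, and the asparagine synthetase ASNS. They were chosen by gene symbol as members of these pathways, and the choice was made with their response to temozolomide (TMZ) in these same libraries already known. Their TMZ effects are therefore given as a description without p-values, their counts of calls only stand beside those over all genes, and nothing is supported with them. All other comparisons below use the same libraries, so their p-values are not independent evidence either. All 10 genes were found among the 26364 genes of the count file, and all 10 were among the 14201 genes with enough reads to be tested.

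RNA came from the human glioblastoma cell line LN229, which responds to TMZ, a DNA-methylating drug used against this tumour. Clone Surv-GFP (D6) carries a plasmid for Survivin fused to eGFP with a functional nuclear export sequence (NES), and its Survivin lies mainly in the cytoplasm of unexposed cells, while the study describes that the fusion builds up in the nucleus upon TMZ. Clone SurvNESmut-GFP (L2) carries the fusion with a mutated NES, which traps it in the nucleus. Cells received no drug or TMZ at 50 µM over 48 h, giving 4 groups of 2 libraries with the letters a and b. All groups were grown in serum-containing medium, and the study describes its clones as selected by antibiotic resistance. Each form is represented by 1 clone, so the mutation and any other difference between these clones cannot be told apart, and libraries of the parental line were not analysed here. The study's legends speak of independent biological replicates that were each measured in technical duplicates, and the labels do not say which of these the letters mark, so each spread and p-value describes the difference between letters.

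Each library held 15826923 to 18861603 reads on genes. Over all genes tested, log2 CPM had an r of 0.994 or more within groups and of 0.986 or less between groups. The letters of the TMZ-exposed SurvNESmut-GFP cells differed most, with a chi-square per gene of 5.54 against 2.16 to 2.58 in the other groups. CPM are reads scaled to a common library size. BIRC5, the Survivin gene, whose reads include the transgene, was at 1152 and 1113 CPM without TMZ and at 1938 and 2029 CPM with it in the Surv-GFP clone, and at 407 and 414, and 262 and 253 CPM in the other. The glial marker GFAP was below the filter on low counts, while 7 of the 8 lineage markers of glioma were above it. Their summed level was 5972 to 6033 CPM without and 3871 to 3957 CPM with TMZ in Surv-GFP, and 4662 to 4858 and 4131 to 4269 CPM in SurvNESmut-GFP cells. Upon TMZ 5 of the 7 fell and 1 rose in the former clone, and 4 fell and 2 rose in the latter (adjusted p of at most 0.05, edgeR). Of all tested genes 28.9% fell and 30.1% rose in Surv-GFP, and 19.1% fell and 18.6% rose in SurvNESmut-GFP cells. Of 6 markers of other cell types, those of leukocytes (PTPRC), endothelium (PECAM1), epithelium (EPCAM) and neurons (RBFOX3) were below the filter. A marker of macrophages and a collagen gene passed it. Upon TMZ the macrophage marker rose and the collagen gene fell in both clones (adjusted p of at most 0.05, edgeR). The summed level of the 6 was 18.1 to 23.0 CPM in Surv-GFP and 51.8 to 59.5 CPM in SurvNESmut-GFP libraries. Named after their values were seen, the glial marker S100B had 798 and 756 CPM in untreated Surv-GFP and 41.2 and 40.1 CPM in untreated SurvNESmut-GFP cells, and the collagen gene COL1A1 had 6.45 and 6.18, and 41.2 and 43.8 CPM. The lineage markers did not all go the way of S100B. Of the 7 tested, 4 were lower and 2 higher in untreated SurvNESmut-GFP cells (adjusted p of at most 0.05, edgeR), against 29.4% and 34.7% of all tested genes. NES had 711 and 760 CPM in untreated Surv-GFP and 925 and 1005.5 CPM in untreated SurvNESmut-GFP cells, and CD44 had 566 and 582, and 656 and 650 CPM. The part of these marker differences in the results below was not tested.

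Serine is built from an intermediate of glycolysis by PHGDH, PSAT1 and PSPH in sequence. SHMT1 in the cytosol and SHMT2 in mitochondria convert serine to glycine and hand a carbon to tetrahydrofolate. MTHFD2, MTHFD1L and ALDH1L2 process this carbon in mitochondria and MTHFD1 does so in the cytosol, for the making of purines, thymidylate and methionine. ASNS transfers nitrogen from glutamine to aspartate to form asparagine. Several of these genes are known targets of ATF4, the transcription factor of the integrated stress response, which binds a composite C/EBP-ATF element often written TGATGNAA.

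The element was looked for on both strands of RefSeq promoter windows (GRCh38.p14, from 250 bases before to 50 bases after each transcript start), because the promoter of ASNS is a textbook place for it. A match was present in 1270 of 35116 windows (3.62%), and in 4.46% of the genes with a window. Of the 7 member genes with a window, ASNS and MTHFD1L held a match, and PHGDH, PSAT1, SHMT1, MTHFD1 and MTHFD2 held none in these bases. ALDH1L2, PSPH and SHMT2 had no window. The 30 bases around each match are given on the strand of the match, with the 8 matching bases in capitals.
ASNS promoter, chr7:97872458-97872487: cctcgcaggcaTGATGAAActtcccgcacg
MTHFD1L promoter, chr6:150866346-150866375: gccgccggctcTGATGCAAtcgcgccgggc
The ASNS match starts 68 bases before the transcript start of its window, and the other of the 2 ASNS windows held none. ASNS lies on the minus strand, and the match is read along it. The MTHFD1L match lies on the plus strand, that of its gene, and is shared by 3 of its 4 windows, starting 129 or 90 bases before or 24 bases after the start. A match of these letters is a description and shows no binding.

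The members took 0.121% to 0.129% of the reads on genes in untreated and 0.270% to 0.305% in TMZ-exposed libraries. Upon TMZ, 8 of 10 members were higher and 2 lower in Surv-GFP cells at a Benjamini-Hochberg adjusted p of 0.05 with edgeR's quasi-likelihood F test, where 30.1% of all tested genes were higher and 28.9% lower. In SurvNESmut-GFP cells 9 were higher and 1 lower, against 18.6% and 19.1% of all tested genes. The median log2 fold change of the members was 1.39 and 1.09, while the median of all tested genes was 0.00 in both clones. Since these contrasts were known when the genes were chosen, nothing is read from the counts. Less RNA per cell and fewer cells of a kind cannot be told apart in such bulk samples.

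**Figure D1:**
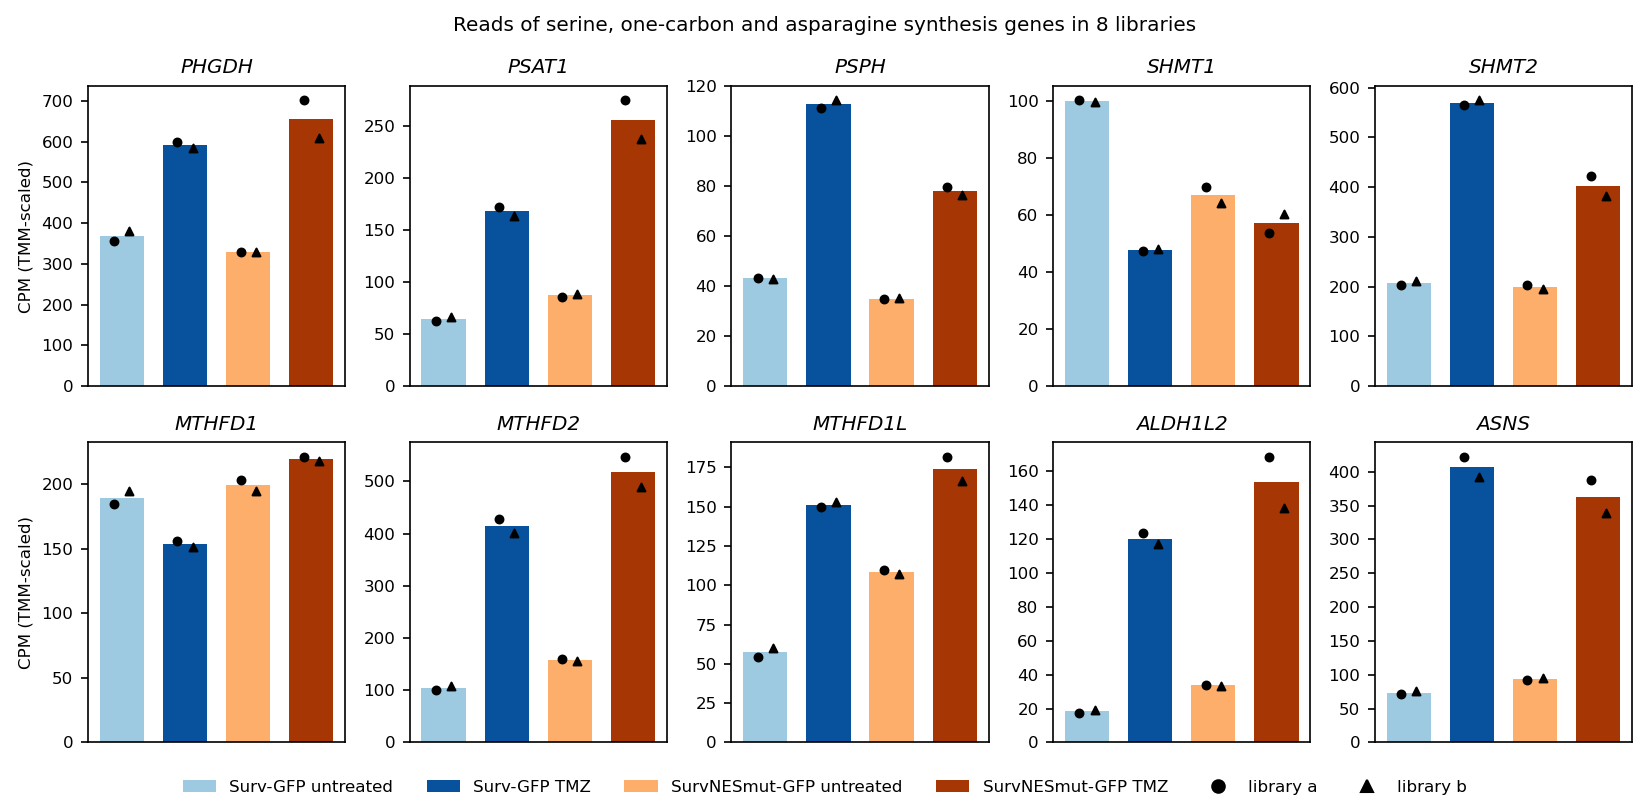
TMM-scaled CPM (y axis, from 0, a separate scale for each gene) of the 10 genes in the 4 groups; bars are the mean of 2 libraries, circles library a and triangles library b. No pair of groups overlaps for any gene, but the share of all genes without overlap was not counted, so this is no result about the members. Some gaps are narrow, such as 204.4 against 202.9 CPM for SHMT2 and 194.8 against 195.2 CPM for MTHFD1 between the untreated clones. With TMZ, 8 genes are higher in both clones, while SHMT1 is lower and MTHFD1 goes in opposite directions.

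In serine synthesis all 3 enzymes rose upon TMZ in both clones. PHGDH, the entry enzyme of the pathway, had 356 and 381 CPM in untreated and 599 and 585 CPM in TMZ-exposed Surv-GFP cells. The other clone had 329.8 and 328 CPM without and 701 and 608 CPM with TMZ. No untreated library reached a TMZ-exposed one. The rise was 1.61-fold in Surv-GFP (log2 fold change 0.69, SE 0.06) and 1.99-fold in SurvNESmut-GFP (0.99, SE 0.06), the smallest of the 3 enzymes in each clone.

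PSAT1, the aminotransferase of the second step, had 62.4 and 66.7 CPM without and 172 and 163 CPM with TMZ in Surv-GFP cells. The corresponding values in SurvNESmut-GFP cells were 86.1 and 88.5, and 274 and 237 CPM. All 4 groups were apart, and both letters of SurvNESmut-GFP lay above those of Surv-GFP under either exposure. PSAT1 rose 2.60-fold (1.38, SE 0.07) and 2.93-fold (1.55, SE 0.07).

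PSPH, the phosphatase that releases serine, showed the reverse order of clones. It had 43.2 and 43.0 CPM without and 111 and 114 CPM with TMZ in Surv-GFP cells. SurvNESmut-GFP libraries had 34.7 and 35.1, and 79.6 and 76.5 CPM. The rise was 2.62-fold (1.39, SE 0.05) in Surv-GFP and 2.24-fold (1.16, SE 0.06) in SurvNESmut-GFP cells. Reads of SurvNESmut-GFP were below those of Surv-GFP in both exposures.

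The serine hydroxymethyltransferases of cytosol and mitochondria moved in opposite directions. SHMT1, the cytosolic form, had 100.4 and 99.8 CPM in untreated and 47.6 and 48.0 CPM in TMZ-exposed Surv-GFP cells, a 2.09-fold decrease (log2 fold change −1.07, SE 0.06). In SurvNESmut-GFP cells the values were 69.9 and 64.2 without and 53.9 and 60.5 CPM with TMZ, a 1.17-fold decrease (−0.23, SE 0.06). The groups did not overlap in either clone, but the gap in SurvNESmut-GFP was narrow, and the gene was no longer counted as lower there without untreated replicate a (−0.17) or TMZ replicate a (−0.15) of that clone. SHMT1 had the lowest log2 fold change of the 10 genes in both clones.

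SHMT2, the mitochondrial form, had 204 and 211 CPM without and 565 and 575 CPM with TMZ in Surv-GFP cells. Cells of SurvNESmut-GFP had 203 and 195, and 423 and 382 CPM. The untreated clones lay close together, and the TMZ-exposed ones lay far apart. The rise was 2.74-fold (1.46, SE 0.05) in Surv-GFP and 2.02-fold (1.02, SE 0.05) in SurvNESmut-GFP cells.

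MTHFD1, the trifunctional folate enzyme of the cytosol, differed in direction between the clones. It had 185 and 195 CPM without and 156 and 151 CPM with TMZ in Surv-GFP cells, a 1.23-fold decrease (−0.30, SE 0.05). For SurvNESmut-GFP the values were 203 and 195 CPM without and 222 and 218 CPM with TMZ, a 1.10-fold increase (0.14, SE 0.05). The groups did not overlap in either clone. In SurvNESmut-GFP the gene was no longer counted as higher without Surv-GFP TMZ replicate b, without untreated replicate a or b (0.17 and 0.11) or TMZ replicate a of its own clone, or by DESeq2.

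The folate enzymes of mitochondria all rose. MTHFD2, a dehydrogenase and cyclohydrolase typical of embryonic and tumour cells, had 101 and 109 CPM without and 428 and 401 CPM with TMZ in Surv-GFP cells. The other clone had 159 and 157, and 547 and 488 CPM. This was a rise of 3.95-fold (1.98, SE 0.06) and 3.28-fold (1.71, SE 0.06). All 4 groups were apart, with SurvNESmut-GFP above Surv-GFP under either exposure.

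MTHFD1L, the synthetase that releases formate from mitochondria, had 54.7 and 60.0 CPM without and 149.8 and 153 CPM with TMZ in Surv-GFP cells, a 2.64-fold rise (1.40, SE 0.06). In SurvNESmut-GFP cells it started higher, at 110.0 and 107 CPM, and reached 182 and 166 CPM, a 1.60-fold rise (0.68, SE 0.06). The clones were further apart before than after TMZ.

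ALDH1L2, which oxidizes formyl-tetrahydrofolate in mitochondria with formation of NADPH, had the fewest reads per length of the 10 and the largest fold change in both clones. In Surv-GFP cells it had 17.4 and 19.4 CPM without and 124 and 117 CPM with TMZ, a 6.55-fold rise (2.71, SE 0.09). SurvNESmut-GFP libraries had 34.2 and 33.3, and 169 and 139 CPM, a 4.55-fold rise (2.19, SE 0.08). This was rank 138 and rank 80 from the highest log2 fold change of the 14201 tested genes. The TMZ-exposed letters of SurvNESmut-GFP differed by 1.22-fold, the largest ratio of letters of any member, and letter a was the higher one for 9 of the 10 genes in that group.

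ASNS had 71.8 and 75.9 CPM without and 422 and 392 CPM with TMZ in Surv-GFP cells, a 5.51-fold rise (2.46, SE 0.07). Cells of SurvNESmut-GFP had 92.9 and 95.7, and 388 and 338 CPM, a 3.85-fold rise (1.94, SE 0.07). It was the member with the second largest fold change in both clones, at ranks 170 and 104 of all tested genes. Its untreated level was higher in SurvNESmut-GFP and its TMZ-exposed level higher in Surv-GFP.

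**Figure D2:**
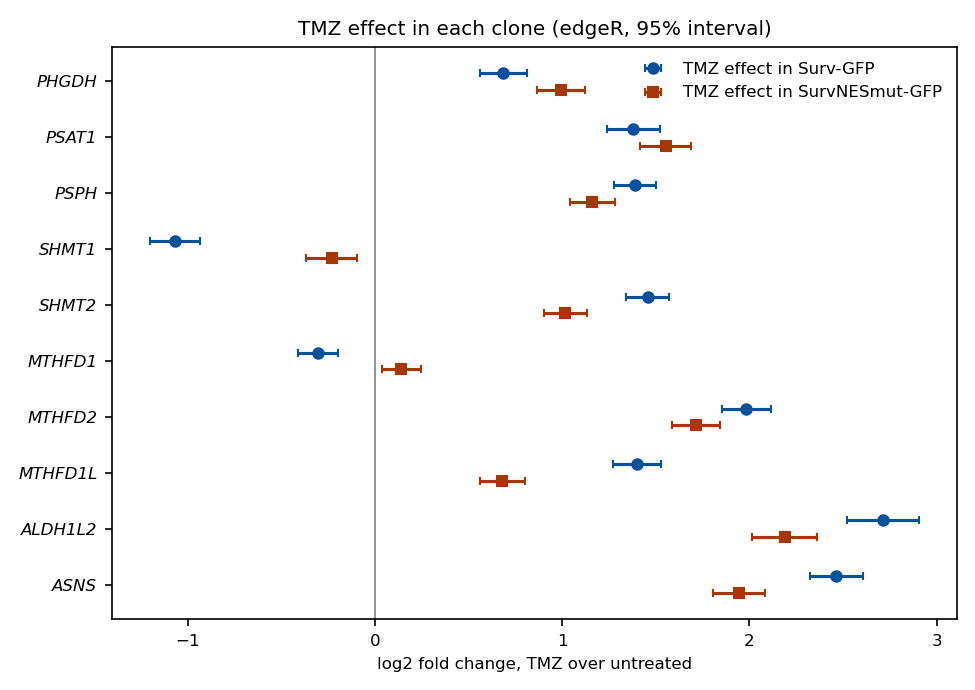
Log2 fold change upon TMZ (x axis) of each gene in Surv-GFP (circles) and SurvNESmut-GFP (squares), with the 95% interval of the edgeR fit to all 8 libraries. ALDH1L2 and ASNS lie furthest to the right in both clones, SHMT1 lies below 0 in both, and MTHFD1 lies below 0 in Surv-GFP and above 0 in SurvNESmut-GFP.

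Per kilobase of transcript, PHGDH was the most abundant of the 10 messages in every group, with 142 ± 6.85 (SD, n = 2) RPKM, the CPM divided by transcript length in kilobases, in Surv-GFP cells before and 229 ± 3.76 (SD, n = 2) after TMZ. SHMT2 came next in each group, and with TMZ its 225 ± 2.69 (SD, n = 2) RPKM in Surv-GFP overlapped the libraries of PHGDH. ASNS moved from 31.4 ± 1.24 (SD, n = 2) to 173 ± 9.10 (SD, n = 2) RPKM in Surv-GFP cells, and so from the fifth place, not apart from PSAT1, to the third. In SurvNESmut-GFP cells it went from 40.03 ± 0.855 (SD, n = 2), not apart from PSAT1, to 154 ± 14.8 (SD, n = 2) RPKM, not apart from SHMT2. SHMT1 fell from the fourth to the ninth place in Surv-GFP cells. ALDH1L2 was the lowest of the 10 in every group, with 2.44 ± 0.185 (SD, n = 2) RPKM in untreated Surv-GFP and 20.4 ± 2.82 (SD, n = 2) in TMZ-exposed SurvNESmut-GFP cells, the latter overlapping SHMT1.

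The ratio of reads of a mitochondrial to a cytosolic enzyme, taken within a library and not corrected for length, does not depend on the scaling between libraries. SHMT2 over SHMT1 was 2.04 and 2.12 in untreated and 11.9 and 12.0 in TMZ-exposed Surv-GFP cells. For SurvNESmut-GFP it was 2.90 and 3.03, and 7.86 and 6.31. The mean ratio thus rose 5.74-fold and 2.39-fold. MTHFD2 over MTHFD1 was 0.549 and 0.557 without and 2.74 and 2.65 with TMZ in Surv-GFP cells, and 0.782 and 0.803 without and 2.47 and 2.24 with TMZ in SurvNESmut-GFP cells. MTHFD1L over MTHFD1 was 0.296 and 0.308 without and 0.959 and 1.01 with TMZ in Surv-GFP cells, and 0.540 and 0.550 without and 0.821 and 0.764 with TMZ in SurvNESmut-GFP cells. For each pair the untreated ratio was higher in SurvNESmut-GFP and the TMZ-exposed ratio higher in Surv-GFP, with no overlap of libraries.

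**Figure D3:**
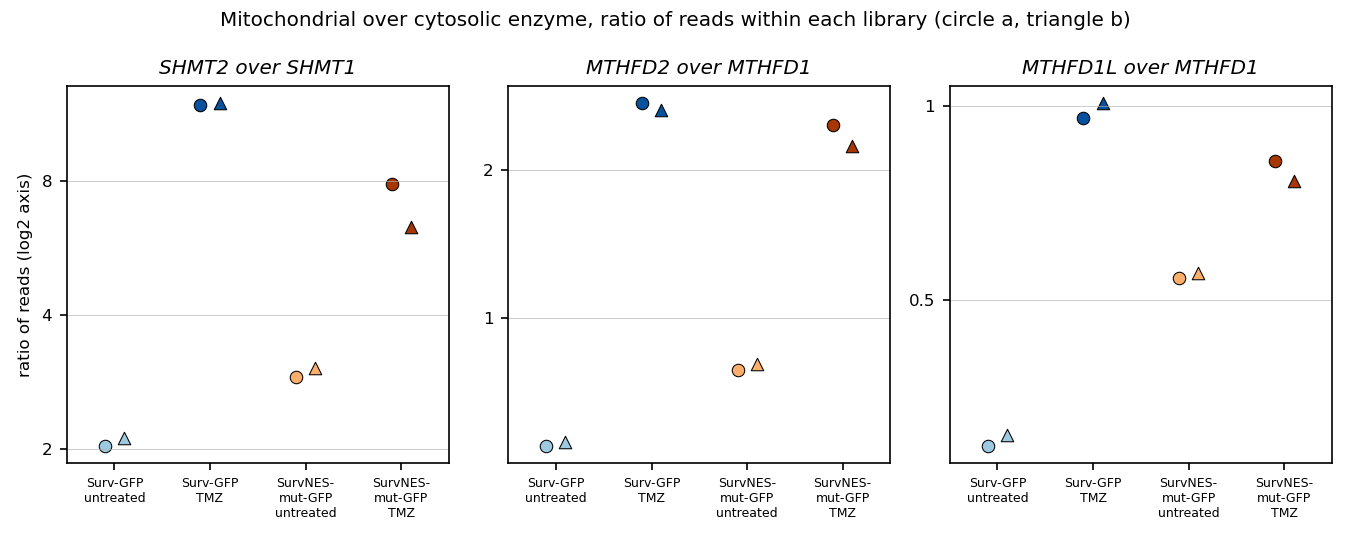
Ratio of the reads of the mitochondrial to the cytosolic enzyme in each of the 8 libraries (y axis, log2 scale, a separate range for each pair), with circles for library a and triangles for library b. Each ratio is higher with TMZ in both clones, and the step is larger in Surv-GFP, for example 2.04 and 2.12 to 11.9 and 12.0 for SHMT2 over SHMT1.

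The TMZ effect itself was compared between the clones as the log2 fold change in SurvNESmut-GFP minus that in Surv-GFP. Both effects were known when the members were chosen, so the calls and p-values of their difference are a description and support nothing. This difference was above 0 for 3 members and below 0 for 6 (adjusted p of at most 0.05, edgeR), against 16.6% and 20.2% of all tested genes. The median difference of the members was −0.25, and that of all tested genes was −0.00. MTHFD1L had the lowest value, with the smaller rise in SurvNESmut-GFP (−0.72, SE 0.08, adjusted p 4.5e-06). ALDH1L2 (−0.52, SE 0.13, adjusted p 0.00373), ASNS (−0.52, SE 0.09, adjusted p 0.00033) and SHMT2 (−0.44, SE 0.08, adjusted p 0.00029) also had the smaller rise in SurvNESmut-GFP. The differences of MTHFD2 (−0.27, SE 0.08, adjusted p 0.02) and PSPH (−0.23, SE 0.08, adjusted p 0.03) were of the same sign.

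The 3 members with a difference above 0 were SHMT1, which fell less in SurvNESmut-GFP (0.83, SE 0.09, adjusted p 2.5e-06), MTHFD1, of opposite directions (0.44, SE 0.07, adjusted p 0.00012), and PHGDH, which rose more in SurvNESmut-GFP (0.31, SE 0.08, adjusted p 0.00922). For PSAT1 the difference was 0.17 with a 95% interval from −0.02 to 0.37 (adjusted p 0.164). Without SurvNESmut-GFP TMZ replicate b it was 0.27 and called (adjusted p 0.00497), and without replicate a of that group it was 0.06. The PHGDH difference was 0.25 without Surv-GFP untreated replicate b (adjusted p 0.0624) and 0.20 without SurvNESmut-GFP TMZ replicate a, still called. The PSPH call held only without SurvNESmut-GFP TMZ replicate a, and its adjusted p was 0.0529 to 0.15 with any other library left out. The MTHFD2 call ended without replicate a of Surv-GFP untreated (−0.22, adjusted p 0.103), replicate a of Surv-GFP TMZ (−0.22, adjusted p 0.102), or either untreated SurvNESmut-GFP library (adjusted p 0.0671 and 0.0508).

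The untreated clones were compared next. At an adjusted p of 0.05 (edgeR), 5 members were higher and 3 lower in untreated SurvNESmut-GFP than in untreated Surv-GFP cells, against 34.7% and 29.4% of all tested genes, so most genes differed between these clones and the count is no result about the members. The mitochondrial enzymes MTHFD1L (log2 difference 0.92, SE 0.06, adjusted p 1.1e-09), ALDH1L2 (0.88, SE 0.10, adjusted p 1.3e-06) and MTHFD2 (0.59, SE 0.06, adjusted p 3.8e-07) were higher, as were PSAT1 (0.44, SE 0.07, adjusted p 3.9e-05) and ASNS (0.35, SE 0.07, adjusted p 0.00028). SHMT1 (−0.58, SE 0.06, adjusted p 3.5e-07), PSPH (−0.30, SE 0.06, adjusted p 0.00029) and PHGDH (−0.16, SE 0.06, adjusted p 0.0273) were lower. The PHGDH call ended without Surv-GFP untreated replicate b (−0.11, adjusted p 0.234) and without either untreated SurvNESmut-GFP library (adjusted p 0.0973 and 0.113). SHMT2 and MTHFD1 did not pass, with intervals from −0.18 to 0.05 and from −0.03 to 0.18, and SHMT2 passed without SurvNESmut-GFP TMZ replicate b (−0.10, adjusted p 0.0487).

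With TMZ, 7 members had higher and 3 had lower reads in SurvNESmut-GFP cells compared with the Surv-GFP clone, against 34.5% and 34.7% of all tested genes. PSAT1 (0.61, SE 0.06, adjusted p 2.2e-07), MTHFD1 (0.52, SE 0.05, adjusted p 1.1e-07), ALDH1L2 (0.35, SE 0.07, adjusted p 0.00036), MTHFD2 (0.32, SE 0.06, adjusted p 0.00011), SHMT1 (0.26, SE 0.07, adjusted p 0.00253), MTHFD1L (0.20, SE 0.05, adjusted p 0.00357) and PHGDH (0.15, SE 0.06, adjusted p 0.0381) were higher. PSPH (−0.53, SE 0.05, adjusted p 8.5e-08), SHMT2 (−0.50, SE 0.05, adjusted p 3.3e-07) and ASNS (−0.17, SE 0.06, adjusted p 0.0233) were lower. PHGDH, SHMT1 and ASNS thus had the opposite sign of clone difference without and with TMZ. Both clone differences share their libraries with the TMZ effects.

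The TMZ-exposed clone difference leaned on SurvNESmut-GFP TMZ replicate a for several genes. Without it, PHGDH (0.00), MTHFD1L (0.10), ALDH1L2 (0.17) and MTHFD2 (0.20) had smaller differences, and the calls of PHGDH and MTHFD1L ended. The difference of ASNS was instead larger without it, at −0.31. Without replicate b of that group, SHMT1 was at 0.14 (adjusted p 0.0941) and ASNS at −0.11 (adjusted p 0.0852). Without Surv-GFP TMZ replicate a, the calls of MTHFD1L (0.15, adjusted p 0.0795) and ASNS (−0.15, adjusted p 0.104) also ended. The PHGDH call ended without either TMZ-exposed Surv-GFP library (adjusted p 0.172 and 0.169) and without either untreated SurvNESmut-GFP library (adjusted p 0.0577 and 0.0586).

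**Figure D4:**
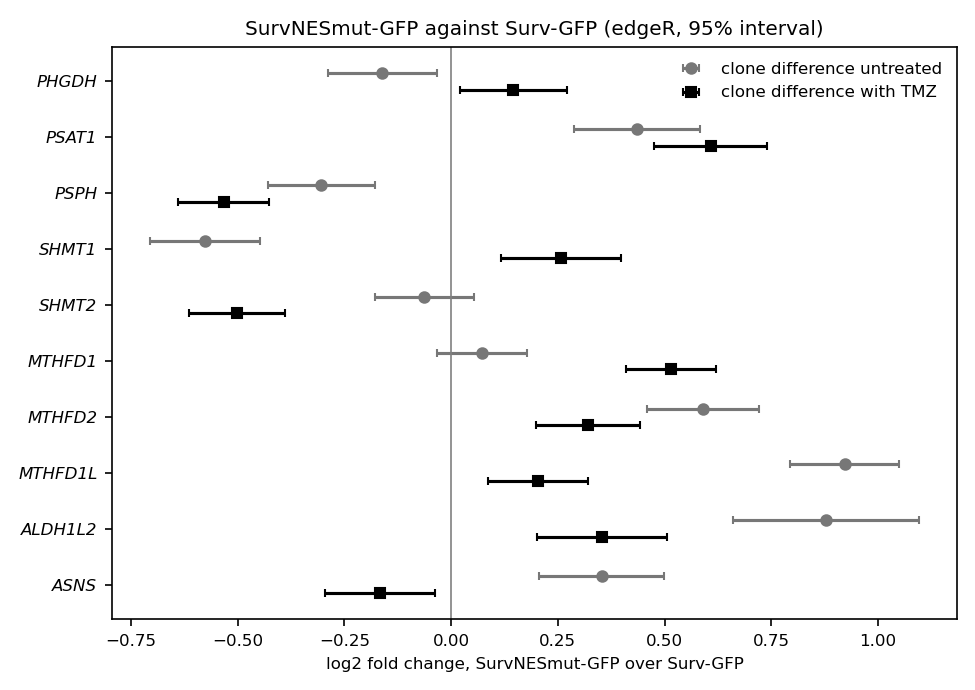
Log2 difference of SurvNESmut-GFP from Surv-GFP (x axis) for each gene without TMZ (grey circles) and with TMZ (black squares), with the 95% interval of the edgeR fit. MTHFD1L and ALDH1L2 stand furthest to the right without TMZ (0.92 and 0.88), and PHGDH, SHMT1 and ASNS lie on opposite sides of 0 without and with TMZ.

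The members' profiles over the 8 libraries, which lie in 4 groups, were compared by Pearson's r of log2 CPM as a description. MTHFD2 and ALDH1L2 were most alike (r = 0.999), followed by PSPH and SHMT2 (0.991) and by PSAT1 with MTHFD2 (0.987). ASNS was closest to ALDH1L2 (0.979), and so was MTHFD1L (0.952), while PHGDH was closest to ASNS (0.952). SHMT1 and MTHFD1 had no close partner of positive r, and their highest r was 0.325, with each other. SHMT1 ran opposite to the members other than MTHFD1, with r from −0.714 (PHGDH) to −0.934 (MTHFD1L). The lowest r of MTHFD1 was −0.492, with PSPH. Among 10301 tested genes other than the members with a mean log2 CPM of at least 3, the profiles most like the mean of the members were those of HEMK1 (0.997), MAPKBP1 (0.995), USP4 (0.993), SLC1A5 (0.992), NCS1 (0.990), SLC6A9 (0.990), ADORA2B (0.989) and TSEN15 (0.989). This r does not reflect the size of a change. Upon TMZ, HEMK1 rose 1.51-fold in Surv-GFP and 1.53-fold in SurvNESmut-GFP, USP4 1.21-fold and 1.24-fold, and MAPKBP1 3.19-fold and 3.34-fold. SLC1A5, a carrier of neutral amino acids including serine and glutamine, had 252 and 250.02 CPM without and 401 and 401 CPM with TMZ in Surv-GFP cells, and 271 and 265, and 505 and 421 CPM in SurvNESmut-GFP cells. SLC6A9, a glycine transporter, had 35.2 and 35.3, and 80.9 and 90.9 CPM in Surv-GFP, and 36.7 and 36.2, and 103 and 95.9 CPM in SurvNESmut-GFP cells.

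Other genes around the pathway were followed in lists written from general knowledge, with earlier results of these data known. Most genes named from them were the highest or lowest of their list. SLC6A9 and SLC1A5 were also picked for their likeness to the members. Their p-values are therefore a description. The counts below use the same adjusted p of 0.05 of the edgeR fit to all 14201 genes. Of all tested genes, 30.1% rose and 28.9% fell in Surv-GFP, and 18.6% rose and 19.1% fell in SurvNESmut-GFP cells. Each count below stands beside these shares. Of 8 carriers of serine and glycine, 4 rose and 2 fell upon TMZ in Surv-GFP cells (median log2 fold change 0.48), and 4 rose and 1 fell in SurvNESmut-GFP cells (0.31). SLC6A9 rose by 1.28 (adjusted p 7.8e-11) and 1.45 (adjusted p 8.7e-11) on the log2 scale, and SLC1A5 by 0.67 and 0.79. SFXN3 fell in both clones (−0.54 and −0.30), and SFXN2 fell by 0.66 in Surv-GFP (adjusted p 0.00017), where SurvNESmut-GFP had 0.39 (adjusted p 0.034, lost without either of its untreated libraries or its TMZ replicate b, up to 0.137). The difference of the SFXN2 effects was 1.05 (adjusted p 0.00027). SLC38A5 had only 12 reads with and 3 reads without TMZ in Surv-GFP, a ratio of 4.05 with a 95% counting interval from 1.09 to 22.4.

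Of 13 tested genes of glycine cleavage and other uses of serine and glycine, 4 rose and 3 fell in Surv-GFP and 2 rose and 1 fell in SurvNESmut-GFP cells, with medians of −0.12 and 0.01. These counts lie near or below the shares of all tested genes, so nothing is read from them. SDSL, a serine dehydratase-like enzyme, rose by 1.23 and 0.81 (adjusted p 6.4e-07 and 0.00044). AMT of the glycine cleavage system rose by 1.32 in SurvNESmut-GFP (adjusted p 2.3e-05), and its 0.48 in Surv-GFP (adjusted p 0.0362) was not called without either untreated Surv-GFP library (adjusted p 0.102 and 0.123) or without TMZ replicate b (0.34, adjusted p 0.234). SPTLC3, a subunit of the enzyme that joins serine to a fatty acid, fell by 1.47 in Surv-GFP (adjusted p 0.0001) and had −0.16 in SurvNESmut-GFP (adjusted p 0.558), with a difference of 1.31 (adjusted p 0.00469). SPTLC2 fell by 0.23 in Surv-GFP (adjusted p 0.00252), and its −0.18 in SurvNESmut-GFP was not called without that clone's untreated replicate a (−0.10, adjusted p 0.292) or TMZ replicate b (−0.16, adjusted p 0.0535).

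Of 13 tested genes of folate uptake, retention and other folate reactions, 4 rose and 3 fell in Surv-GFP and 2 rose and 2 fell in SurvNESmut-GFP cells, with medians of 0.03 and 0.05. Nothing is read from these counts either, which lie near or below the shares of all tested genes. SLC46A1, a folate transporter, fell by 0.76 in Surv-GFP (adjusted p 0.00018) and had 0.05 in SurvNESmut-GFP (adjusted p 0.865). FTCD and MTHFS had 2 to 25 and 3 to 18 reads per library. FTCD had 0.99 (adjusted p 0.263) and 1.11 (adjusted p 0.0315), and the latter was lost without untreated replicate a (0.57, adjusted p 0.323) or either TMZ library (adjusted p 0.0748 and 0.0684) of SurvNESmut-GFP and was 1.95 without its untreated replicate b. MTHFS had 1.18 (adjusted p 0.123) and 0.39 (adjusted p 0.525).

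Of 7 enzymes of thymidylate and purine synthesis, which take up the carbon, 3 fell and 0 rose in Surv-GFP, and 3 rose and 0 fell in SurvNESmut-GFP cells by the edgeR test, with medians of −0.12 and 0.05. No enzyme was called in both clones, and the difference of the effects was above 0 for 5 of the 7 (16.6% of all tested genes). PAICS fell by 0.39 in Surv-GFP (adjusted p 2.3e-06) and had 0.01 in SurvNESmut-GFP (adjusted p 0.843). GART rose by 0.33 in SurvNESmut-GFP (adjusted p 0.00028) and had 0.12 in Surv-GFP (adjusted p 0.0797). The GART value in Surv-GFP passed without Surv-GFP untreated replicate b (0.19, adjusted p 0.0453) or either TMZ-exposed SurvNESmut-GFP library (0.13, adjusted p 0.0231 and 0.0238).

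Of 11 tested genes of the methionine cycle and transsulfuration, 3 rose and 4 fell in Surv-GFP and 2 rose and 4 fell in SurvNESmut-GFP cells, with medians of −0.03 and −0.06. CTH, which releases cysteine from cystathionine, rose by 2.45 (adjusted p 9e-12) and 1.97 (adjusted p 2.3e-09). Its libraries had 7.97 and 7.40 CPM without and 46.0 and 38.2 CPM with TMZ in Surv-GFP, and 6.67 and 6.67, and 26.3 and 26.0 CPM in SurvNESmut-GFP cells. MTR, methionine synthase, fell by 0.69 in Surv-GFP (adjusted p 4.3e-09), and its −0.15 in SurvNESmut-GFP (adjusted p 0.0207) was lost without untreated replicate a or TMZ replicate a of that clone (−0.12 each, adjusted p 0.156 and 0.121). MTAP, of methionine salvage, fell in both clones (−0.39 and −0.48, adjusted p 1.5e-05 and 7.7e-06).

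Of 12 tested genes of aspartate, asparagine and glutamine metabolism, 5 rose and 1 fell in Surv-GFP and 4 rose and 1 fell in SurvNESmut-GFP cells, with medians of 0.25 and 0.14. GLUL, glutamine synthetase, fell in both clones (−0.33 and −0.61, adjusted p 0.00025 and 2.1e-05). ASS1, argininosuccinate synthase, was nearly silent, with 3 reads in untreated and 32 in TMZ-exposed Surv-GFP, a ratio of 10.8 with a 95% counting interval from 3.38 to 55.1. In SurvNESmut-GFP it had 1 and 6 reads, a ratio of 6.63 with an interval from 0.804 to 305.

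Of 20 other genes of the ATF4 arm of the integrated stress response, 15 rose and 3 fell in Surv-GFP and 16 rose and 3 fell in SurvNESmut-GFP cells, with medians of 1.09 and 1.08. ATF4 had 254 and 247 CPM without and 460 and 443 CPM with TMZ in Surv-GFP, and 269.9 and 285, and 412 and 383 CPM in SurvNESmut-GFP cells. It rose by 0.85 (adjusted p 6.5e-10) and 0.52 (adjusted p 8.5e-07), and the difference was −0.33 (adjusted p 0.00221). CHAC1, a glutathione-degrading enzyme, rose by 4.25 and 3.57 (adjusted p 3.5e-14 and 8e-13). EIF2AK3, which encodes the kinase PERK, rose by 0.40 in Surv-GFP (adjusted p 0.00056) and fell by 0.70 in SurvNESmut-GFP cells (adjusted p 1.2e-05). ALDH18A1, of proline synthesis, fell by 0.91 in Surv-GFP (adjusted p 9.6e-10) and had −0.13 in SurvNESmut-GFP cells (adjusted p 0.098), which passed without TMZ replicate a of that clone (−0.17, adjusted p 0.0498). The signed difference of the effects was below 0 for 11 of the 20 and above 0 for 4. Of all tested genes, 20.2% were below and 16.6% above 0 at this threshold. The median difference of the 20 was −0.44. The r of log2 CPM with ATF4 over the 8 libraries was 0.988 for ASNS, 0.974 for SHMT2, −0.917 for SHMT1 and −0.366 for MTHFD1, and these values follow the same 4 groups. Of 16 genes of this list with a promoter window, 3 held the element (ATF3, CEBPG and CHAC1).

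Of 5 other regulators, 1 rose and 3 fell in Surv-GFP and 1 rose and 2 fell in SurvNESmut-GFP cells, with medians of −0.18 and −0.02. MYC had 5.37 and 5.85 CPM without and 16.8 and 16.6 CPM with TMZ in Surv-GFP, a rise of 1.58 (adjusted p 4.1e-06). In SurvNESmut-GFP it had 16.8 and 16.2 CPM without and 32.1 and 19.4 CPM with TMZ, and its rise of 0.65 (adjusted p 0.00388) fell to 0.24 without TMZ replicate a (adjusted p 0.12). MYCN fell in both clones (−3.28 and −3.91, adjusted p 7.1e-12 and 4.9e-07).

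Markers of proliferation moved with the exposure as well. Of 12, 11 fell and 1 rose in Surv-GFP, and 11 fell and 0 rose in SurvNESmut-GFP cells, with medians of −1.15 and −0.72. PLK1, a mitotic kinase, fell in both clones (−2.53 and −1.98, adjusted p 8.3e-15 and 8e-13), while CDC6, of replication licensing, rose by 0.71 in Surv-GFP (adjusted p 7.5e-08) and had 0.15 in SurvNESmut-GFP cells (adjusted p 0.0645, and 0.0321 without TMZ replicate a of that clone). Their summed level was 2686 to 2875 CPM without and 1198 to 1250 CPM with TMZ in Surv-GFP, and 3370 to 3448 and 2039 to 2103 CPM in SurvNESmut-GFP cells. Their part in the changes of SHMT1, MTHFD1 and the other members was not tested.

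**Figure D5:**
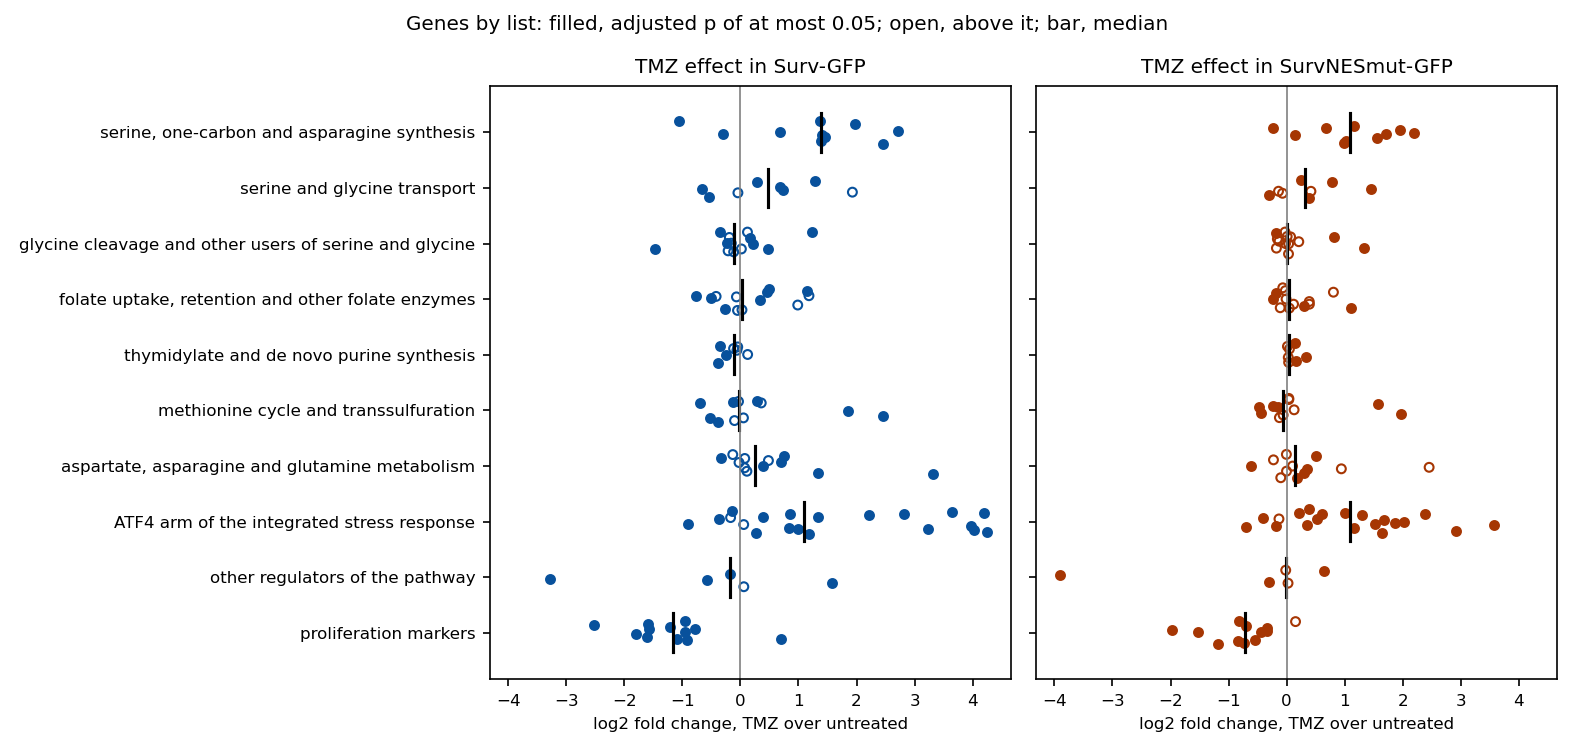
Log2 fold change upon TMZ (x axis) of the members and of 9 gene lists (rows) in Surv-GFP and SurvNESmut-GFP, one point for each tested gene, filled where the adjusted p is at most 0.05, with a bar at the median; some genes, such as ASS1 and SLC38A5, are fitted from very few reads. The medians of the members (1.39 and 1.09) and of the ATF4 arm (1.09 and 1.08) lie to the right of 0 and those of the proliferation markers (−1.15 and −0.72) to the left.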

How the data were processed

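Total RNA of 8 LN229 libraries was sequenced on the Illumina platform. The file the authors deposited lists raw counts of reads, whole numbers, for each gene symbol. The submitters' processing notes name STAR 2.5.0b, Cufflinks 2.2.1 and edgeR, and say nothing of the counting program. Strandedness, annotation and genome build were not given in the sources used here either. Reads shared with a neighbour on the opposite strand (for example at MTHFD2, SHMT2, ALDH1L2, MTHFD1 and SHMT1) cannot be separated, nor can reads shared between near-identical copies (such as PSPH and its pseudogene). Rows for reads on no gene (11.2% to 14.3% of each library) or on several (1.19% to 1.28%) were left out. The authors' 5 comparison tables (log2 fold changes, mean log2 CPM, F, p and FDR) were not used.

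The 4 groups follow the sample labels. Counts were fitted in R 4.3.3 with edgeR 4.0.16, as 4 group means over all 8 libraries, with TMM factors (0.978 to 1.02), filterByExpr and the legacy quasi-likelihood F test. P-values were adjusted after Benjamini-Hochberg over the 14201 tested genes. The common biological coefficient of variation was 4.09%. SE is the log2 fold change divided by the square root of F. CPM use TMM-scaled library sizes, and RPKM also use the length of the longest principal transcript (GENCODE, not necessarily the authors' annotation). The scripts were tested on simulated data. Counting intervals (95%, exact binomial, for genes with 1 to 3 reads in a group) cover counting error only.

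The genes and lists were chosen with earlier results of these data known. The genes named are all members, the list genes with the highest and the lowest log2 fold change upon TMZ in each clone, ATF4 and MYC, and the 8 genes most like the mean of the members. SLC1A5 and SLC6A9 were also named from the last group. A gene that this rule selects is not reported here. Alternatives were DESeq2 size factors, library size alone, no filter, a filter of 1 CPM in 2 libraries, DESeq2 1.42.0, the edgeR 4 quasi-likelihood method, a robust prior, the replicate block, a fit to the compared groups alone, and omission of single libraries.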

Additional observations from a re-analysis of the deposited data

Results flagged for a closer look

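For 9 of the 10 members the log2 fold change upon TMZ was called different between the clones (SurvNESmut-GFP minus Surv-GFP, edgeR, adjusted p of at most 0.05), 3 above and 6 below 0, against 16.6% and 20.2% of all tested genes. The TMZ effects behind this difference were known when the genes were chosen, so these calls are a description and no independent test. The values were 0.83 for SHMT1, 0.44 for MTHFD1, 0.31 for PHGDH, −0.23 for PSPH, −0.27 for MTHFD2, −0.44 for SHMT2, −0.52 for ALDH1L2, −0.52 for ASNS and −0.72 for MTHFD1L. These are differences between 1 clone of each kind, and the calls of PHGDH, PSPH and MTHFD2 ended with some libraries left out (adjusted p 0.0624 without Surv-GFP untreated replicate b, up to 0.15 without Surv-GFP TMZ replicate b, and up to 0.103 without Surv-GFP untreated replicate a).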

How the results depend on the processing

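Of 840 values of members under the alternatives, 795 kept direction and side of the threshold, 43 fell short of it, 2 passed newly and 0 changed sign. All 10 members were stable under all 17 alternatives for the TMZ effect in Surv-GFP, 8 for that in SurvNESmut-GFP, 6 for the difference between the effects (16 alternatives), and 8 and 6 for the differences between untreated and between TMZ-exposed clones. The number of members called lower upon TMZ in SurvNESmut-GFP was 0 to 1 with single libraries left out. The PSPH difference was not called with library size alone (adjusted p 0.0968), no filter (0.0798), the filter of 1 CPM (0.0756) or DESeq2 (0.166), nor the MTHFD2 difference with library size alone (0.0609). With TMZ, the clone difference of PHGDH was not called with DESeq2 size factors (0.0519), DESeq2 (0.0677) or only the groups compared (0.0906), nor that of ASNS with the latter (0.0573). The MTHFD1 effect in SurvNESmut-GFP was not called with only the groups compared either. The cause of these losses was not tested.

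No effect of the letters shared between groups was seen, since the deviations of letter a from its group mean correlated with r of −0.0671 to 0.0832 between groups. The labels do not say whether libraries of the same letter were paired, and these values cannot tell. With the replicate block, 4186 genes were higher and 4017 lower upon TMZ in Surv-GFP, and 2569 and 2610 in SurvNESmut-GFP. The block ended 1 call of a member, MTHFD1 in SurvNESmut-GFP (log2 fold change 0.14).

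Of 1572 values of the other named genes, 1482 kept direction and call, 78 fell short of the threshold, 8 passed newly and 4 changed sign, the latter all in the SurvNESmut-GFP effect. With single libraries left out these ranged from −0.38 to 0.87 for MTHFS, from −0.18 to 0.32 for SLC46A1 and from −0.0158 to 0.0495 for PAICS, and SLC46A1 was at −0.00342 without SurvNESmut-GFP TMZ replicate a. None of these was called. DESeq2 called 1866 genes higher and 2070 lower in SurvNESmut-GFP, and edgeR 1810 and 1938 without that clone's untreated replicate b. With 2 libraries a group, a spread that is wider between cultures than between letters would not be seen.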

Other observations

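Within the list of the ATF4 arm, TRIB3 and STC2 differed most between the clones in their response to TMZ, and both were picked after their values were seen. TRIB3, an inhibitor of ATF4 signalling, had 40.6 and 38.8 CPM without and 702 and 748 CPM with TMZ in Surv-GFP cells, and 51.2 and 52.5, and 192 and 187 CPM in SurvNESmut-GFP cells. Its rise was 4.19 and 1.87 on the log2 scale, and the difference was −2.32 (SE 0.08, adjusted p 5.9e-12, edgeR). STC2, a secreted glycoprotein, rose by 3.98 and 1.67, with a difference of −2.31 (SE 0.18, adjusted p 8.1e-08). GOT1, the cytosolic aspartate aminotransferase, was also picked after its values were seen, with 1.33 (adjusted p 4.8e-12) in Surv-GFP and 0.10 (adjusted p 0.206) in SurvNESmut-GFP cells and a difference of −1.23 (SE 0.08, adjusted p 1.2e-08).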
